A study of Homo sapiens with 15 samples.

Results

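miR-32-5p (hsa-miR-32-5p) is 1 of the 1619 mature miRNA entries counted in small RNA libraries of DiFi, a line of human colorectal cancer cells. It was chosen for its fall from cell pellets to unfiltered and then to filtered HDM samples, so those levels are described here without a test. The table holds 14 libraries, all from DiFi. They are 2 cell pellets (labelled HF6 and HF7), 2 unfiltered HDM samples (HF6 and HF7), 2 filtered HDM samples (HF6 and HF7), HF6 cells from plates 1, 2 and 3, HF7 cells from plates 1, 2 and 3, with HDM media and regular media as single libraries. The labels give no genotype change, drug or time. They do not spell out HDM or HF, do not say what the filter was or whether HF6 and HF7 are separate cultures, and describe the RNA of every sample, cells included, as taken from extracellular material. The stated purpose was to try out culture conditions under which small RNA that the cells release can be collected. A library of HDM media without cells is named in the labels and was not analysed here, so no medium background stands beside the values.

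A miRNA hairpin is cut into a duplex of 2 arms, 5p and 3p. One arm is usually kept in an Argonaute protein, where its seed, bases 2 to 8, pairs with target mRNAs, and the other is usually degraded. miR-32-5p belongs to the family of miR-25, miR-92a, miR-92b and miR-363, which share a seed. It is known from colorectal and prostate carcinomas. The hairpin gene MIR32 lies at chr9:109046229-109046298 on the minus strand (GRCh38), inside TMEM245 on the same strand. In GENCODE 29 no exon of the 3 TMEM245 transcripts that span it covers miR-32-5p, which is therefore intronic.

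The hairpin is shown with both arms in capitals, because the arms differed in what follows. Sequences are those of RefSeq (GRCh38.p14), and each matched the deposited sequence.
MIR32 hairpin: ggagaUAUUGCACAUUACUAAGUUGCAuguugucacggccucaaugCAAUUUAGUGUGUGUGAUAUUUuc
The seed relatives follow, with the seed in capitals, to show what they share with miR-32-5p and where they part.
miR-32-5p: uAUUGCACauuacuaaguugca
miR-92a-3p: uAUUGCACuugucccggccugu
miR-25-3p: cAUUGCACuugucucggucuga
miR-92b-3p: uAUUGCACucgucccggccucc
miR-363-3p: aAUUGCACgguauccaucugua
miR-32-3p, the other arm, has another seed.
miR-32-3p: cAAUUUAGugugugugauauuu
From base 9 on, miR-32-5p is identical to miR-25-3p and to miR-363-3p at 6 of 14 positions and to miR-92a-3p and to miR-92b-3p at 3 of 14. Its nearest entry in the table, miR-25-3p, is 8 edits away. miR-32-5p has 31.8% G and C against a median of 47.8% over the 534 miRNAs tested, of which 47 have as little or less. The seed relatives are richer, at 50% for miR-25-3p, 54.5% for miR-92a-3p and 63.6% for miR-92b-3p.

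Library totals ran from 205734 counts (HF7 unfiltered HDM) to 4896921 (regular media). The HF7 pellet, with 313382.1 counts, was the other shallow library. A floor of 3 counts corresponds to between 0.523 and 11.1 CPM. CPM, the read count per library set to a common total, are scaled by trimmed mean of M values (TMM). Every level is relative to the other miRNAs of its library. The gut epithelial markers (8 of 8 in the table) summed to between 300459 and 434226 CPM in pellets, 281306 and 326716 on plates, and 181961 and 232049 in HDM samples. The leukocyte markers (5 of 5) summed to between 3123 and 3866 CPM in pellets, 2171 and 2887 in unfiltered HDM and 1445 and 1713 in filtered HDM, with miR-223-3p at 0 in pellets and in unfiltered HDM. Their sums were 3102 to 4146 CPM on HF6 plates, 2468 to 3185 on HF7 plates, 3631 in HDM media and 2755 in regular media. The endothelial pair summed to between 135 and 179 CPM in pellets, 22.2 and 31.5 in unfiltered and 19.9 and 20.1 in filtered HDM, and the muscle, erythroid and neural markers were also lower in filtered HDM than in pellets, each list at 105 CPM or less in pellets. The stromal miR-143-3p was at 0 in both, and the liver marker miR-122-5p reached at most 0.822 CPM in any library. All 14 libraries are from DiFi, and whether other cell types had a part in the level of miR-32-5p was not tested. In bulk RNA of cells, fewer cells that hold a miRNA and less of it per cell cannot be told apart.

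miR-32-5p was highest in the cell pellets, intermediate on plates and lowest in filtered HDM. The pellets held 1883 (HF6) and 243 (HF7) counts of it, or 685 and 851 CPM. The unfiltered HDM samples held 387 and 29 counts, or 156 and 107 CPM, and the filtered HDM samples 162 and 94 counts, or 58.5 and 52.5 CPM. The libraries of these 3 groups did not overlap, with means of 768 ± 118, 132 ± 34.6 and 55.5 ± 4.29 CPM (SD, n = 2 each). The low depth of HF7 unfiltered HDM leaves its level between 71.8 and 154 CPM (95% exact Poisson interval, counting error only), which still lies above the levels of both filtered samples and below those of both pellets.

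Within HF6 the level in the pellet was 4.38 times that in unfiltered HDM, which in turn was 2.67 times that in filtered HDM. Within HF7 the same steps were 7.93 and 2.04. From pellet to filtered HDM the ratio came to 11.7 in HF6 and 16.2 in HF7. Both HF6 and HF7 were thus lower at each step, and the first step was the larger. In the fit of 12 libraries the log2 fold was -2.52 ± 0.51 (standard error) for unfiltered HDM against pellets, -3.79 ± 0.54 for filtered HDM against pellets and -1.27 ± 0.50 for filtered against unfiltered HDM. Counted from the lowest fold of the 534 miRNAs, miR-32-5p ranked 12 in filtered HDM against pellets and 26 in unfiltered HDM against pellets. Filtered against unfiltered HDM gave no call (0%) in this edgeR fit or in DESeq2 and 1 in limma-voom. In this edgeR fit 10 miRNAs had an unadjusted p under 0.05. Some other edgeR settings gave calls, which are counted in the closing section. Scaled by total counts alone, the 2 folds against pellets were -3.39 and -1.999, while the median of all miRNAs moved from 0.11 to 0.59 and from 0.07 to 0.66. Relative to that median, miR-32-5p stood at -3.90 with TMM and -3.97 with total counts in filtered HDM, and at -2.59 and -2.66 in unfiltered HDM.

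**Figure D1:**
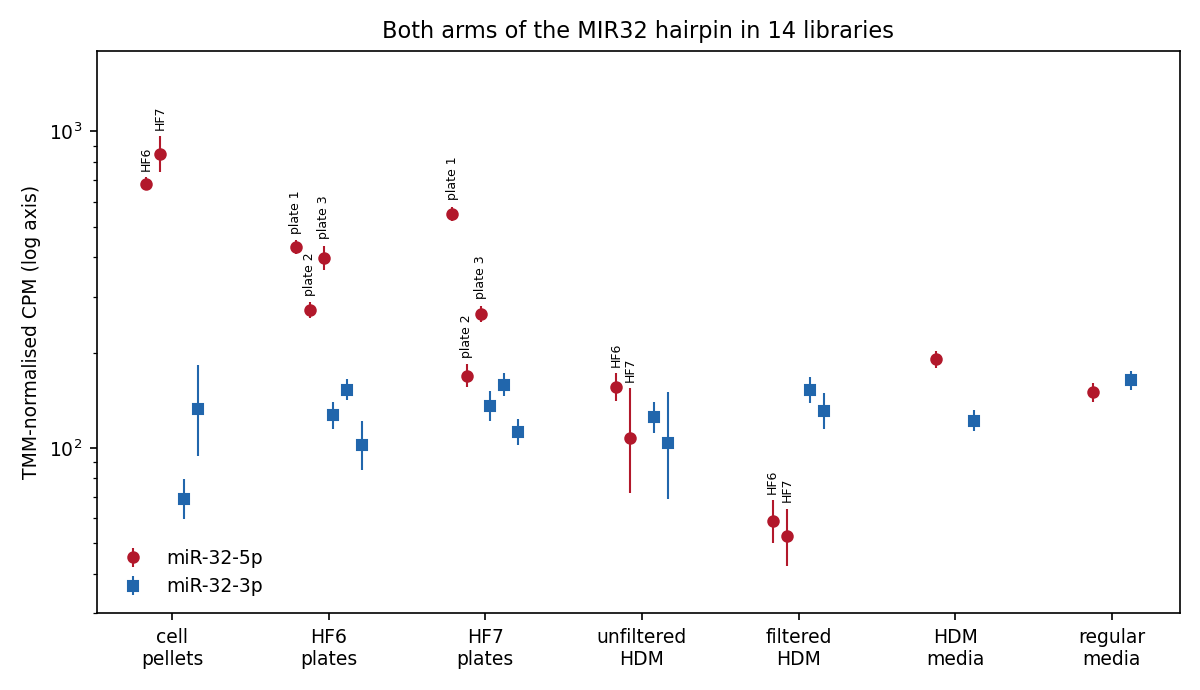
TMM-normalised CPM (log axis) of miR-32-5p (circles) and miR-32-3p (squares) in each of the 14 libraries, grouped along the horizontal axis by sample type, with 95% exact Poisson intervals for counting error. miR-32-5p runs from 851 CPM in the HF7 pellet down to 52.5 in HF7 filtered HDM, while miR-32-3p stays between 69.1 and 164.

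The order that led to the choice of miR-32-5p was uncommon but not particular to it. Both pellets lay above both unfiltered samples, and these above both filtered samples, for 27 of 534 miRNAs (5.06%), and the opposite order held for 36 (6.74%). With group means at least 2-fold lower at each step, 6 miRNAs remained (1.12%), of which 5 had a mean of at least 100 CPM in pellets. Beside miR-32-5p they were miR-12136, miR-141-3p, miR-146a-5p and miR-142-5p. miR-141-3p, of the epithelial miR-200 family, averaged 14174 CPM in pellets, 3260 in unfiltered and 1218 in filtered HDM. miR-146a-5p, known to dampen innate immune signalling, averaged 5788, 290.3 and 102.9. miR-142-5p, known from blood cells, averaged 1778, 785 and 382. miR-12136 averaged 22870, 4421 and 1411, with 40156 and 5585 CPM in the individual pellets. Nothing is read from these counts, since the same contrasts chose miR-32-5p.

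The plates took no part in that choice. On them miR-32-5p lay between pellets and HDM, with wide differences by plate number. Pellets and HDM were the ends used in the choice, so a place between them is description only. HF6 plates 1, 2 and 3 held 432, 272 and 399 CPM, and HF7 plates 1, 2 and 3 held 549, 169 and 265. Plate 2 was the lowest and plate 1 the highest in both HF6 and HF7. By mean, the order of levels was pellets at 768, plate 1 at 490 ± 82.6, plate 3 at 332 ± 94.8, plate 2 at 221 ± 72.8, unfiltered HDM at 132 and filtered HDM at 55.5 CPM (n = 2 each). Neighbours overlapped for plates 2 and 3 only. The gap between plates and unfiltered HDM was narrow, since HF7 plate 2 at 169 CPM (95% interval 156 to 183) and HF6 unfiltered HDM at 156 CPM (141 to 173) overlapped within counting error. By total-count CPM the pellets and plate 1 overlapped too, at 492 in the HF6 pellet and 501 on HF7 plate 1.

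Plate number was tested with HF6 and HF7 as the 2 libraries of each plate number. That plate number separates libraries was known from earlier results of these data when these contrasts were chosen. miR-32-5p fell from plate 1 to plate 2 by 1.15 ± 0.30 on the log2 scale (edgeR adjusted p = 0.0143), lower on plate 2 in both HF6 and HF7, by 1.59 and 3.24 times. In this contrast 127 of 534 miRNAs were called (23.8%), 68 of them lower on plate 2 (12.7%), so the call is shared with many others. miRNAs higher on plate 2 made up 11%. The call was lost without HF7 plate 1 (log2 fold -0.95, edgeR adjusted p = 0.133) or HF7 plate 2 (-0.85, edgeR adjusted p = 0.194). Over all alternatives the adjusted p ran from 0.000703 (limma-voom) to 0.194. Plate 3 against plate 1 was not called, at -0.57 ± 0.30 (edgeR adjusted p = 0.215, with 17.4% of miRNAs called). Nor was plate 3 against plate 2, at 0.58 ± 0.30 (edgeR adjusted p = 0.689, with 0.187% called), although plate 3 was higher in both HF6 and HF7, by 1.47 and 1.57 times.

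HF6 and HF7 plates were compared to ask whether these 2 sets of cells differ in miR-32-5p. They averaged 368 ± 84.4 and 328 ± 197 CPM (SD, n = 3 each), and their ranges overlapped. The log2 fold of HF7 against HF6 was -0.17 ± 0.39 (edgeR adjusted p = 0.999), less than its error. The sign turned without HF7 plate 2 (0.19) or HF7 plate 3 (0.04). No miRNA was called in this contrast (0%) in edgeR, DESeq2 or limma-voom, and 6 had an unadjusted edgeR p under 0.05.

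Against plates as a whole, at 348 ± 137 CPM (SD, n = 6), the HDM samples and the pellets lay on opposite sides. The log2 fold of miR-32-5p was -1.14 ± 0.37 for plates against pellets, -1.37 ± 0.43 for unfiltered HDM against plates and -2.64 ± 0.47 for filtered HDM against plates. In the last of these it ranked 8 from the lowest. No p is given, since 1 side of each contrast was used in choosing miR-32-5p, and these contrasts share their libraries with those above.

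The media libraries, 1 of each, lay within the range spanned by plate 2 and unfiltered HDM. HDM media held 1093 counts, or 191 CPM (95% interval 179 to 202), and regular media 749 counts, or 149.6 CPM (139 to 161). Both lay above the filtered HDM samples, and both lay below the plates, except that HDM media exceeded HF7 plate 2. With single libraries the difference between the media has no replicate check.

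miR-32-3p, the arm from the other side of the same hairpin, was not called lower in HDM. It had 69.1 and 133 CPM in pellets (190 and 38 counts), 125 and 104 in unfiltered HDM (309 and 28 counts), and 152 and 131 in filtered HDM (422 and 234 counts). On plates it ranged from 102 to 158 CPM, and it had 122 in HDM media and 164 in regular media. The pellets overlapped the unfiltered samples and, at 133 against 131, the filtered ones, while both filtered samples lay above both unfiltered ones. The log2 fold of miR-32-3p was 0.24 ± 0.41 in unfiltered HDM against pellets (edgeR adjusted p = 0.752) and 0.54 ± 0.41 in filtered HDM against pellets (edgeR adjusted p = 0.374), with 10.1% and 17.8% of miRNAs called (5.24% higher and 4.87% lower in unfiltered, 8.8% higher and 8.99% lower in filtered HDM). With total counts as the only scaling these folds were 0.75 and 0.92, again not called (edgeR adjusted p = 0.236 and 0.137). Without the HF6 pellet the fold in unfiltered HDM turned to -0.17, and without the HF7 pellet it was 0.85. From plate 1 to plate 2, where miR-32-5p fell, miR-32-3p stood at 0.25 ± 0.27 (edgeR adjusted p = 0.580).

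The ratio of the arms does not depend on how libraries are scaled to each other. The 5p arm took 90.8% of MIR32 reads in the HF6 pellet and 86.5% in the HF7 pellet. It took 55.6% and 50.9% in unfiltered HDM, and 27.7% and 28.7% in filtered HDM, where the 3p arm was thus the more abundant. Read as a ratio, there were 9.91 and 6.39 reads of miR-32-5p for each of miR-32-3p in pellets, 1.25 and 1.04 in unfiltered HDM, and 0.384 and 0.402 in filtered HDM. The 3 groups did not overlap, and the 95% exact binomial intervals of the filtered samples (24.1% to 31.6% and 23.8% to 33.9%) lay below those of all the other libraries. These values include miR-32-5p itself and so carry the choice made on it.

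On plates the share of the 5p arm was lowest on plate 2 in both HF6 and HF7. It was 77.3%, 64.0% and 79.6% on HF6 plates 1, 2 and 3, and 80.2%, 51.7% and 70.2% on HF7 plates 1, 2 and 3. Plate 3 was the highest in HF6 and plate 1 in HF7, and every plate lay below both pellets. HDM media stood at 61.0% and regular media at 47.7%. The share in regular media (95% interval 45.2% to 50.2%) was below those of HDM media and all plates but HF7 plate 2 (48.7% to 54.6%), with which its interval overlapped.

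**Figure D2:**
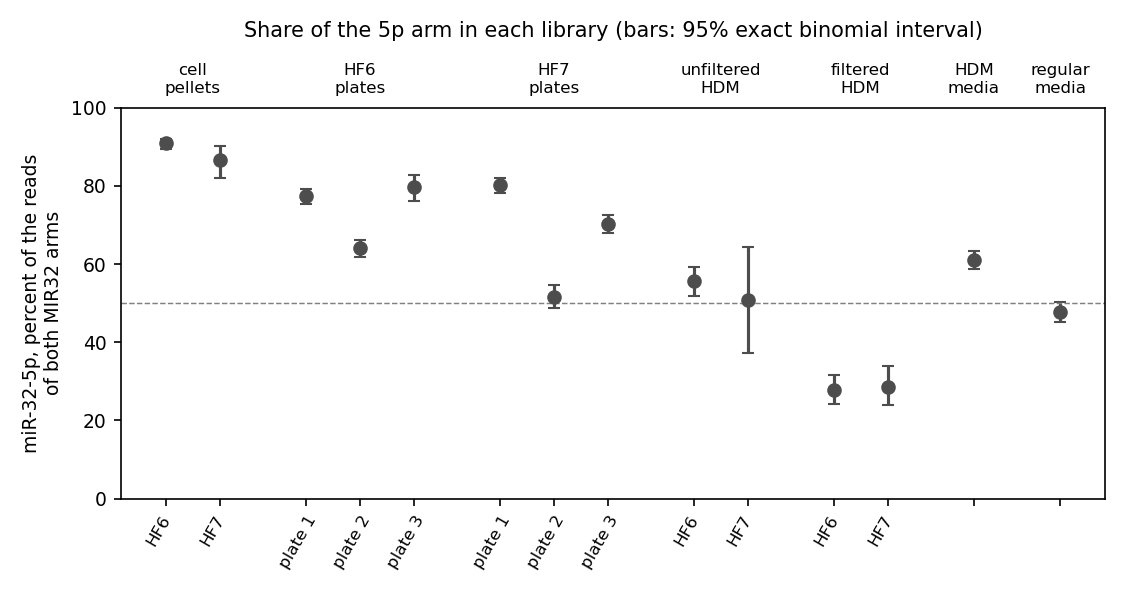
Share of miR-32-5p among the reads of both MIR32 arms in each library (percent, points), with 95% exact binomial intervals (bars, counting error only) and a dashed line at 50%. The pellets sit at 90.8% and 86.5%, and the filtered HDM samples at 27.7% and 28.7%.

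Other hairpins were described in the same way, a comparison chosen after the arms of MIR32 had been seen. Among 118 hairpins with both arms tested and each arm from 1 gene, the less abundant arm had the higher fold in 65 (55.1%) for filtered HDM against pellets, with a median difference between arms of 0.10 on the log2 scale. For MIR32 that difference was 4.32, second to MIR23B at 4.94, whose rarer arm miR-23b-5p had only 2 and 0 counts in pellets. In unfiltered HDM against pellets the difference for MIR32 was 2.75 and ranked 8. Both differences include the fold of miR-32-5p, so they and their ranks carry the choice made on it. The arms were called in opposite directions in filtered HDM for 2 hairpins, MIR27A and MIR193A. miR-27a-3p fell from 8135 and 12710 CPM in pellets to 2180 and 2171 in filtered HDM, while miR-27a-5p rose from 28.4 and 42.0 to 88.5 and 102.7. The call of miR-27a-3p was lost when any 1 of these 4 libraries was left out (edgeR adjusted p from 0.0634 to 0.194). For MIR193A the arm less abundant on average over the libraries, miR-193a-3p, fell from 28.0 CPM in both pellets to 6.14 and 3.35, on 17 and 6 counts. Its other arm, miR-193a-5p, was called higher, on 52 (HF6) and 1 (HF7) counts in pellets and 148 and 97 in filtered HDM. In both pellets miR-193a-5p was the rarer arm, beside 77 and 8 counts of miR-193a-3p. Its 1 count in the HF7 pellet lies below the floor of 3 counts. Whether the calls of MIR193A hold when a library is left out was not tested. MIR32 is not among the 2 hairpins with opposite calls, since miR-32-3p was not called and miR-32-5p is not tested in this contrast.

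**Figure D3:**
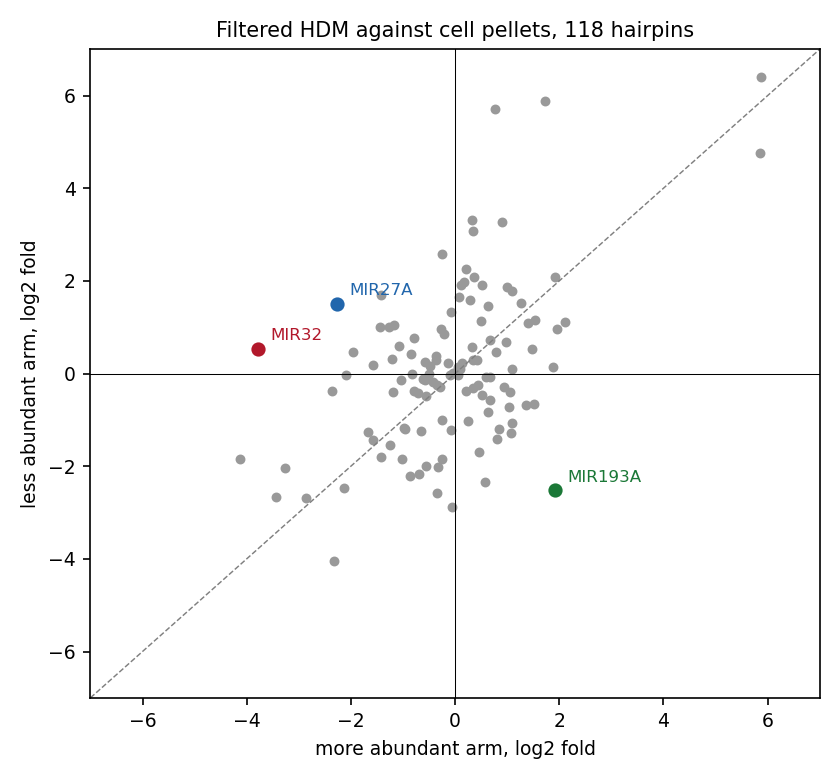
Log2 fold of filtered HDM against cell pellets for the more abundant arm (horizontal axis) and the less abundant arm (vertical axis) of 118 hairpins (points), with the line of equal folds dashed. MIR32 lies at -3.79 and 0.54, far from the line, with MIR27A on the same side at -2.26 and 1.51 and MIR193A on the other side at 1.91 and -2.51.

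The seed relatives, whose shared seed pairs with the same bases, were not called lower in HDM. miR-92a-3p, made from the MIR17HG transcript and from a second copy on chromosome X, had 24153 and 27916 CPM in pellets, 31950 and 27535 in unfiltered HDM, and 39242 and 35306 in filtered HDM. Its log2 fold in filtered HDM against pellets was 0.52 ± 0.22 (edgeR adjusted p = 0.117). miR-25-3p, from an intron of MCM7, had 3812 and 4349 CPM in pellets and 5657 and 6058 in filtered HDM, a fold of 0.52 ± 0.25 (edgeR adjusted p = 0.156). With total counts as the only scaling both were called higher in filtered HDM, at 0.92 each (edgeR adjusted p = 0.0192 for miR-92a-3p and 0.0168 for miR-25-3p), where the median of all miRNAs is 0.59. With plates grouped by plate number miR-92a-3p was called as well, at an unchanged 0.52 (edgeR adjusted p = 0.0321). Fractional counts were present for miR-92a-3p and miR-92b-3p, and how reads were shared between similar entries is not given in the sources used here, so their levels are uncertain to that extent. miR-92b-3p had 129.4 and 129.5 CPM in pellets and 193 and 158 in filtered HDM (0.44 ± 0.37, edgeR adjusted p = 0.414). miR-363-3p had 1 count in 1 library, regular media, and 0 in the other 13, and was not tested. In the fits without these alterations none of the 3 tested relatives was called in any of the 10 contrasts, of which unfiltered and filtered HDM against plates had 1.5% and 6.18% of miRNAs called. Of the 4 family members tested, miR-32-5p was the lowest in filtered HDM, while in pellets miR-92b-3p was. The place of miR-32-5p carries the choice made on it.

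2 of the other arms of the relatives were higher in HDM. miR-92a-1-5p rose from 24.4 and 24.5 CPM in pellets (67 and 7 counts) to 149.7 and 211 in unfiltered HDM and 210.3 and 205 in filtered HDM, with log2 folds of 2.87 ± 0.49 (edgeR adjusted p = 0.00319) and 3.09 ± 0.48 (edgeR adjusted p = 0.00202). It was also higher on plates than in pellets, at 2.44 ± 0.43 (edgeR adjusted p = 0.00877, with 7.12% called, 3.93% higher and 3.18% lower), and from plate 1 to plate 2 it rose by 0.98 ± 0.24 (edgeR adjusted p = 0.0110). That last call was lost without HF6 plate 1, HF6 plate 2 or HF7 plate 1 (edgeR adjusted p = 0.0845, 0.0702 and 0.0897). miR-25-5p rose from 32.7 and 52.5 CPM in pellets to 135 and 104 in unfiltered and 146 and 157 in filtered HDM. These rest on 90 (HF6) and 15 (HF7) counts in pellets, 335 and 28 in unfiltered and 404 and 281 in filtered HDM. The folds of miR-25-5p were 1.58 ± 0.41 (edgeR adjusted p = 0.0332) and 1.90 ± 0.41 (edgeR adjusted p = 0.00813). The first of these was lost without the HF6 pellet (edgeR adjusted p = 0.121), without the HF6 (0.201) or HF7 (0.0812) unfiltered sample, or with only the groups compared (0.0761). miR-92b-5p, with 19 counts or fewer per library, did not pass the filter.

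**Figure D4:**
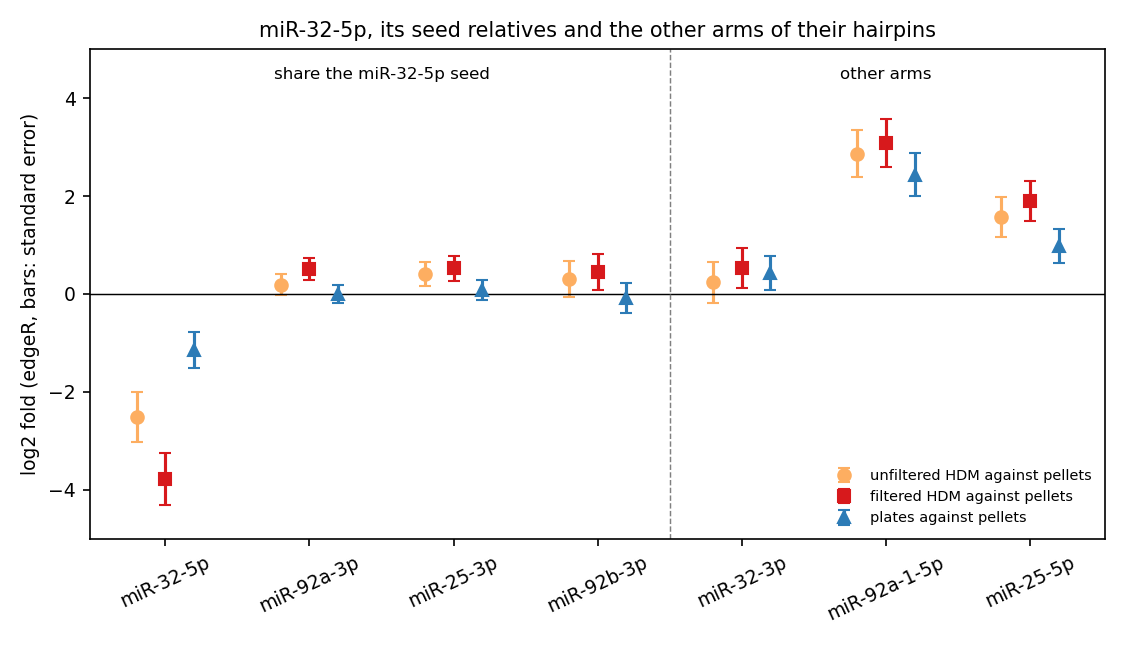
Log2 fold (vertical axis, points) with the standard error of the fit (bars) for miR-32-5p, its 3 tested seed relatives and 3 other arms, in unfiltered HDM, filtered HDM and plates, each against cell pellets. miR-32-5p, which was chosen for its fall in HDM, lies below -1 in all 3 contrasts. The relatives lie between -0.08 and 0.52 and miR-92a-1-5p between 2.44 and 3.09.

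The clusters that hold miR-92a, miR-363 and miR-25 are miR-17-92, miR-106a-363 and miR-106b-25, and miR-92b is in none of them. They gave 20 tested miRNAs of 28 listed. In filtered HDM against pellets 3 of the 20 were higher and 0 lower, beside 8.8% higher and 8.99% lower over all miRNAs tested, with a median log2 fold of 0.49 against 0.11. In unfiltered HDM 2 were higher and 0 lower, beside 5.24% and 4.87% over all, with a median of 0.30 against 0.07. These 2 are miR-92a-1-5p and miR-25-5p, the arms described above, which are also among the 3 in filtered HDM. The lowest member in filtered HDM was miR-18b-5p at -0.86. miR-32-5p was chosen for its fall in HDM, so its lower fold beside these lists carries that choice.

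The miRNAs whose levels followed miR-32-5p most closely were not seed relatives. Over the 14 libraries, and among 183 miRNAs averaging 100 CPM or more, the highest Pearson correlations of log2 CPM were with miR-141-3p (0.97), miR-142-5p (0.97), miR-96-5p (0.90), miR-340-5p (0.89), miR-22-3p (0.89) and miR-30e-5p (0.88). miR-215-5p (0.87), miR-146a-5p (0.86), miR-194-5p (0.86) and miR-27a-3p (0.84) came next. These describe libraries that share depth, collection and scaling, and the high and low ends are the groups for which miR-32-5p was chosen. Within the 6 plates, which are among the 14 libraries that ranked these miRNAs, the correlation was 0.99 for miR-141-3p, 0.96 for miR-142-5p and 0.95 for miR-96-5p, but 0.50 for miR-30e-5p and 0.39 for miR-194-5p. The first 3 are shown for comparison with the seed of miR-32-5p.
miR-141-3p: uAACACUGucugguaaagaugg
miR-142-5p: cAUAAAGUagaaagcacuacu
miR-96-5p: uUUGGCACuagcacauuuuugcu
The log2 folds of these 10 ran from -1.35 (miR-194-5p) to -5.81 (miR-146a-5p) in filtered HDM against pellets and from -1.01 (miR-22-3p) to -4.30 (miR-146a-5p) in unfiltered HDM against pellets. They are given as a description with no test, since likeness to miR-32-5p over these libraries picked the miRNAs. At the other end were miR-500a-3p (-0.93), miR-629-5p (-0.91), miR-29b-1-5p (-0.87), miR-501-3p (-0.87) and miR-502-3p (-0.87), of which miR-500a-3p, miR-501-3p and miR-502-3p are near-identical in sequence and come from 1 cluster. The seed relatives had correlations of -0.74 (miR-92a-3p), -0.70 (miR-25-3p) and -0.64 (miR-92b-3p), and miR-32-3p had -0.38.

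miRNAs grouped by base composition differed from pellets in HDM, and those rich in G and C did so on plates too. Of 69 tested miRNAs with up to 35% G and C, 9 were lower and 2 higher in filtered HDM against pellets (edgeR), with a median log2 fold 0.50 below that of all miRNAs (-0.39 against 0.11). Of 156 with 55% or more, 6 were lower and 27 higher, with a median 0.78 above it. In unfiltered HDM against pellets the medians less that of all miRNAs were -0.41 for the group poor in G and C and 0.64 for the rich group. In plates against pellets they stood 0.04 and 0.58 above it. Of the poor group 1 was higher (1.45%) and 2 lower (2.90%). Of the rich group 13 were higher (8.33%) and 3 lower (1.92%). The shares over all miRNAs in that contrast were 3.93% higher and 3.18% lower. Over all 534 in filtered HDM, 48 were lower (8.99%) and 47 higher (8.8%). Under total-count scaling the median of the low group in filtered HDM turned positive (0.13), but it stayed 0.46 below that of all miRNAs. miR-32-5p, with 31.8% G and C, is among the 69 of that group. The HDM values of the group thus carry in part the choice made on it. miR-32-3p has 27.3% G and C and was not called in either HDM contrast. Its log2 folds against pellets were 0.24 ± 0.41 in unfiltered and 0.54 ± 0.41 in filtered HDM. The part of base composition in the level of either arm was not tested.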

How the data were processed

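The deposited table gives expected counts of reads per mature miRNA, which the authors did not normalise. cutadapt 2.10, Bowtie 1.3.1 and FastQC are listed with build GRCh38, per the submitters' processing notes. The rule behind fractional values and the annotation release are not given in the sources used here. Values were rounded and the 12 replicated libraries were fitted in edgeR 4.0.16 (R 4.3.3; TMM, filterByExpr, quasi-likelihood, Benjamini-Hochberg adjustment, calls at 0.05) with 1 coefficient per group (5 groups, 7 residual degrees of freedom), or with plates grouped by plate number for plate contrasts (6 groups, 6 degrees). The filter left 534 miRNAs. No label says that replicates were grown separately, so a p-value here reflects the scatter of these libraries alone, which may be technical. Replicates of a group differed by 11.1 or more in chi-square per degree of freedom, so none was a copy. Same-numbered HF6 and HF7 plates deviated together (correlations 0.74, 0.56 and 0.50 for plates 1, 2 and 3), which pairs them by plate number.

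Alternatives used DESeq2 1.42.0, limma 3.58.1 (voom), other scalings and filters, other sample sets, the replicate block and leaving out libraries. The fit was tested on simulated data. miR-32-5p, the lists and the plate contrasts were chosen with earlier results of these data known. Named beside miR-32-5p were both arms of the seed family, the 10 most and 5 least correlated miRNAs averaging 100 CPM or more (prior count of 1), and those falling at least 2-fold at each step from at least 100 CPM in pellets. The comparison of hairpin arms was added, and MIR23B, MIR27A, MIR193A and miR-18b-5p were named, after their values were seen.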

Additional observations from a re-analysis of the deposited data

Results flagged for a closer look

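Libraries outside every tested comparison held both arms of MIR32 above the floor of 3 counts. In HDM media miR-32-5p stood at 191 CPM and miR-32-3p at 122 CPM, where the floor is 0.523 CPM. In regular media miR-32-5p stood at 149.6 CPM and miR-32-3p at 164 CPM, where the floor is 0.599 CPM. Each medium has 1 library, and the HDM media without cells were not analysed here.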

How the results depend on the processing

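The log2 fold of miR-32-5p kept its sign under every alternative run for 9 of its 10 contrasts. The exception was HF7 against HF6 plates, from -0.73 to 0.19 when 1 library was left out (0.19 and 0.04 without HF7 plates 2 and 3). Plate 2 against plate 1 ran from -1.49 to -0.85 when 1 library was left out. Total counts as the only scaling gave -1.999 in unfiltered and -3.39 in filtered HDM against pellets, and leaving out a library gave -3.86 to -3.43 for the latter. The fold of miR-32-3p in unfiltered HDM against pellets was -0.17 without the HF6 pellet and 0.85 without the HF7 pellet. A group left with 1 library is assumed to vary like the others.

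The counts of called miRNAs were less stable than the folds. When 1 library was left out they ran from 47 to 63 for plate 2 against plate 1, 33 to 55 for plate 3 against plate 1, 0 to 3 for plate 3 against plate 2, 7 to 54 and 20 to 92 for unfiltered and filtered HDM against pellets, 12 to 122 for plates against pellets, and 2 to 12 and 3 to 44 for unfiltered and filtered HDM against plates. Plates grouped by plate number gave 165, 209 and 174 for unfiltered HDM, filtered HDM and plates against pellets, 3 for filtered against unfiltered HDM, and 53 and 135 for unfiltered and filtered HDM against plates. limma-voom gave 209, 169 and 14 for the plate contrasts in the order above, 1 for filtered against unfiltered HDM, 58 for plates against pellets, and 42 and 173 for the HDM samples against plates. DESeq2 gave 6 for plate 3 against plate 2, 91 for unfiltered HDM and 79 for plates against pellets, and 31 and 65 for the HDM samples against plates. Fitting only the 6 plates gave 199, 170 and 16, and only the groups compared gave 14 for filtered against unfiltered HDM and 11 for plates against pellets. No low-count filter gave 9 for plate 3 against plate 2, 2 for filtered against unfiltered HDM, 104 for plates against pellets and 22 for unfiltered HDM against plates. Total counts gave 6, 80 and 14 for plate 3 against plate 2, plates against pellets and unfiltered HDM against plates. For plate 3 against plate 2, RLE size factors gave 6 and the minimum of 50 counts 0. The cause of these moves was not tested.

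With plate number as a replicate block, HF7 against HF6 plates gave -0.31 for miR-32-5p (edgeR adjusted p = 0.998) and 0 calls. With HF number as a replicate block, plate 2 against plate 1 gave -1.19 (edgeR adjusted p = 0.00835), and calls for plate 3 against plate 2 went from 1 to 5; no call of miR-32-5p changed. HF numbers deviated together by 0.35 (correlation) between pellets and unfiltered HDM, but 0.02 and 0.10 in the pairs with filtered HDM. They are taken as shared numbers only. With 2 libraries per group, HF6 and HF7 necessarily give the same value. The HF7 pellet and the HF7 unfiltered sample are also the 2 shallow libraries, and the part of depth in the 0.35 was not tested. Depth limits the shallow HF7 pellet and HF7 unfiltered sample most, with 243 and 29 counts of miR-32-5p.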
